A study of Homo sapiens with 4 samples.

Results

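Antisense noncoding genes are named after the gene they lie across from, as in ITGB2-AS1 and ITGB2, and 165 of them were expressed in the MDA-MB-231 cells examined here. They were the gene symbols ending in -AS1, -AS2 or -AS3, selected on a mean level of 1 FPKM or more over the 4 libraries; an FPKM counts the fragments of a gene per 1000 bp of its length and per 1000000 fragments assigned to any gene. The deposited table held 39259 genes, of which 1789 had such a symbol, so 165 of 1789 passed and 1624 did not, 632 of them with a mean of 0. Because the members were chosen by this level, levels are given as a description. MDA-MB-231 is a human triple-negative breast cancer cell line with a mesenchymal character. By their labels, 2 libraries (KO) came from this line with a knockout of mdig (also called MINA53; gene symbol RIOX2), a ribosomal oxygenase. The other 2 libraries came from the wild-type line (WT), and all 4 were untreated cells of 1 line in the same medium. The labels do not say how the knockout was made, whether the KO line is 1 clone, or whether the replicates were separate cultures, so p-values cover no more than the spread among the 4 libraries.

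An antisense RNA is transcribed from the strand opposite to another gene, its partner. Some start beside the partner's promoter and run away from it, and others run through the partner's introns or exons. Textbook roles include recruiting or blocking chromatin factors at the partner, masking its mRNA, binding microRNAs, or none beyond the act of transcription. Many are short-lived because the nuclear exosome, an RNA-degrading complex, trims transcripts that lack a stable end.

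Assigned fragments numbered 48768932 and 52163811 in the KO libraries, against 45173267 and 22503981 in the WT libraries. RIOX2 was at 9.23 and 9.82 FPKM in KO libraries, against 8.60 and 8.24 FPKM in WT libraries, a log2 change of 0.16 (SE 0.060, adjusted p = 0.0546), so gene-level RNA did not check the KO label, and KO below means libraries labelled KO. A level over the whole gene cannot show a small deletion. The markers of the line were present, with VIM at 2000 and 2000 FPKM in KO libraries and 2275 and 2394 FPKM in WT libraries. Of genes looked up as low or absent in this line, ESR1 and PGR did not exceed 0.00117 FPKM in any library. ERBB2 was not low, at 14.3 and 13.2 FPKM in KO libraries, against 13.2 and 12.7 FPKM in WT libraries. GATA3 was at 3.53 and 3.49 FPKM in KO libraries, against 4.23 and 4.22 FPKM in WT libraries. EPCAM was at 2.64 and 2.65 FPKM in KO libraries, against 2.15 and 1.87 FPKM in WT libraries. CDH1 was at 0.597 and 0.625 FPKM in KO libraries, against 0.177 and 0.128 FPKM in WT libraries. Of the leukocyte markers, CD3E did not exceed 0.0151 FPKM, PTPRC lay between 0.121 and 0.156 FPKM, and CD14 was at 0.811 and 0.595 FPKM in KO libraries, against 1.18 and 1.27 FPKM in WT libraries. The endothelial marker PECAM1 was at 1.36 and 1.37 FPKM in KO libraries, against 0.970 and 0.985 FPKM in WT libraries, and VWF did not exceed 0.0302 FPKM. The fibroblast marker COL1A1 was at 3.01 and 2.70 FPKM in KO libraries, against 1.86 and 2.09 FPKM in WT libraries, while COL3A1 and PDGFRA did not exceed 0.0165 FPKM. The part of other cells in the results was not tested. The strand setting of the counting is not given in the sources used here, so it was measured. Of 72 genes lying wholly within exons of genes on the opposite strand, each overlapped by a gene with more than 1000 fragments, 32 (44.4%) still had fragments of their own. Only 6 of the 72 had 100 or more over the 4 libraries, up to 15198 for C19orf33. Of 172 genes lying wholly within exons on the same strand, 7 (4.07%) had any, and the highest had 11. At least some fragments in opposite-strand overlaps were therefore assigned to 1 gene or the other in this table. Those in same-strand overlaps mostly were not, and how cleanly the strands were separated was not tested.

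The antisense genes were low. Their means ran from 1.02 to 32.6 FPKM with a median of 1.97 FPKM, against a median of 11.2 FPKM for the 120 tested partners and 8.46 FPKM for all 11716 genes that reached a mean of 1 FPKM. In all, 87 lay under 2 FPKM and 11 reached 10 FPKM. A member had a median of 169 and 190 fragments in the KO libraries, against 169 and 84 in the WT libraries, and the shallow WT replicate 2 limits the precision of the low ones. They were also short, with a median length of 1796 bp (310 to 10670 bp), where all genes tested had 3980 bp. Summed over the 165, they reached 534 and 546 FPKM in KO libraries, against 596 and 622 FPKM in WT libraries, so both KO sums lay below both WT sums. Their class in RefSeq was lncRNA in all 165 cases.

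FGD5-AS1, a spliced noncoding RNA studied as a microRNA-binding transcript, was the most abundant, at 28.7 and 30.0 FPKM in KO libraries, against 36.3 and 35.5 FPKM in WT libraries. Both KO values were below both WT values, and the log2 change was -0.28 (SE 0.053, adjusted p = 0.00333). Its partner FGD5 stood at 0 FPKM in both KO libraries, against 0 and 0.00752 FPKM in the WT libraries, so the level of the antisense gene had no counterpart in the gene it is named for. THAP9-AS1 followed with a mean of 27.9 FPKM, then SLCO4A1-AS1 with 19.1, SERTAD4-AS1 with 16.8, PTOV1-AS2 with 16.0 and ADGRD1-AS1 with 12.8 FPKM. SERTAD4-AS1 was at 16.1 and 14.9 FPKM in KO libraries, against 15.9 and 20.3 FPKM in WT libraries. The groups overlapped and the change did not pass the test (-0.20, adjusted p = 0.198). Without WT replicate 1 the change was -0.37, in a fit where the lone WT library gives no WT spread. PTOV1-AS2 was at 13.8 and 13.8 FPKM in KO libraries, against 16.3 and 20.2 FPKM in WT libraries (-0.37, adjusted p = 0.0162), a call that ended when KO replicate 1 or KO replicate 2 was left out (adjusted p = 0.0573 and 0.0571). At the level threshold, DLGAP1-AS2, CCDC183-AS1 and NARF-AS2 had the lowest means kept, with 1.02 FPKM the lowest of all. DLGAP1-AS2 was at 0.778 and 0.810 FPKM in KO libraries, against 0.839 and 1.64 FPKM in WT libraries (-0.30, adjusted p = 0.254). Without WT replicate 1 its change was -0.56, again with no WT spread measured. ZNF566-AS1 (0.994 FPKM), RASSF8-AS1 (0.985 FPKM) and TAF1A-AS1 (0.982 FPKM) were the highest left out.

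Between the groups, more antisense genes fell than rose. With limma across all 11716 genes at an adjusted p under 0.05, 20 of the 165 were higher in KO (12.1%) and 55 were lower (33.3%), while 90 did not pass. Across all genes tested, 49.9% passed, 21.6% higher and 28.4% lower. The median log2 change of the members was -0.10, against -0.04 for all genes, and of their 75 calls 26.7% were upward, against 43.2% over all genes. In a bulk sample, fewer cells of a type and less RNA per cell cannot be told apart. The KO and WT values did not overlap for 117 of 165 members (70.9%), against 77.5% of all genes tested, so separation of the groups was no more frequent here. Other lncRNA genes had a like pattern: of 363 tested, 70 were higher and 133 lower, with a median of -0.11. The calls were more evenly split after subtracting the median change of the other genes in the same 20 Mb. Then 29 members were higher and 33 lower (46.8% upward), where all genes had 2403 higher and 2381 lower. The median of the members still lay below that of all genes (-0.080 against 3.1e-05). Changes above 0 were found for 64 of the 165 members, against 63 before the subtraction. Without KO replicate 1, 33 members were lower (2048 of all genes); without KO replicate 2, 1559 of all genes were higher and 1962 lower.

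**Figure D1:**
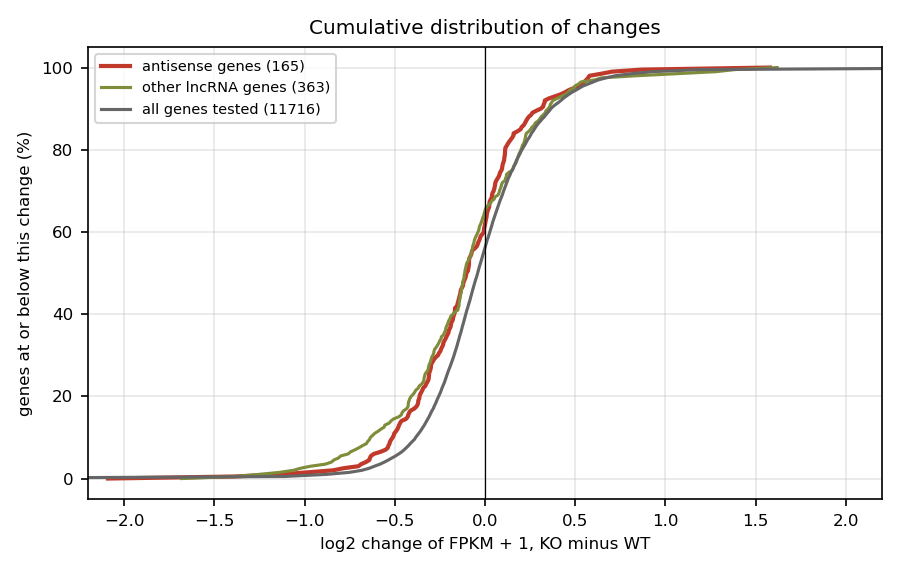
Cumulative share of genes (vertical axis, %) at or below each log2 change of FPKM + 1, KO minus WT (horizontal axis), for the 165 antisense genes, the 363 other lncRNA genes tested and all 11716 genes tested. Over falls and small rises the curves of both noncoding sets lie left of that of all genes, with medians of -0.10 for the antisense genes, -0.11 for the other lncRNA genes and -0.04 for all genes.

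Size of the change was moderate for most. The largest was a fall of 2.09 and the highest rise was 1.58 on the log2 scale, and 4 of the 165 moved by at least 1. Of the 20 that rose, 3 had a WT mean under 1 FPKM (PSMB8-AS1, NFKB1-AS1 and NRSN2-AS1). Of the 55 that fell, 12 had a KO mean under 1 FPKM, among them KAZN-AS1, MNX1-AS1, NINJ2-AS1 and DST-AS1. These 15 passed the level threshold through the group in which they were high. By level, 12 rose and 27 fell among the 87 members from 1 to under 2 FPKM, 3 rose and 15 fell among the 46 from 2 to under 5 FPKM, and 5 rose and 13 fell among the 32 at 5 FPKM or above. In shares, these were 13.8% higher and 31.0% lower of the members from 1 to under 2 FPKM, against 19.0% and 22.7% of all genes at that level. From 2 to under 5 FPKM they were 6.52% and 32.6% of the members, against 23.0% and 24.8% of all genes, and at 5 FPKM or above 15.6% and 40.6% of the members, against 21.6% and 30.6% of all genes.

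AFAP1-AS1 had the largest rise. This RNA lies across from AFAP1, which encodes an actin-filament adaptor that binds SRC, and has been studied as an abundant transcript of several carcinomas. It spans chr4:7754090-7778928 on the plus strand as deposited, with 6.93% of its exon bases inside AFAP1 exons and its start 185771 bp from that of AFAP1. Its level was 12.3 and 12.2 FPKM in KO libraries, against 3.43 and 3.43 FPKM in WT libraries. The groups were far apart and the pairs close together, a ratio of 3.57 and a log2 change of 1.58 (SE 0.056, adjusted p = 1.75e-06), called in all 13 alternative settings. AFAP1 itself was at 18.7 and 18.7 FPKM in KO libraries, against 17.5 and 15.8 FPKM in WT libraries. Its change of 0.16 did not pass the test (adjusted p = 0.0603). It did pass in several alternatives, among them voom on recovered fragments (0.17, adjusted p = 0.0240).

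OIP5-AS1, known in mouse and fish as Cyrano, an RNA that directs the destruction of a microRNA, also rose. It was at 13.1 and 13.7 FPKM in KO libraries, against 8.82 and 8.55 FPKM in WT libraries (0.57, SE 0.056, adjusted p = 0.000161). Its partner OIP5, a kinetochore assembly factor, was at 10.9 and 11.8 FPKM in KO libraries, against 9.79 and 9.58 FPKM in WT libraries (0.21, adjusted p = 0.0228; 0.15 with adjusted p = 0.238 without KO replicate 2). ADGRD1-AS1 was at 14.8 and 15.6 FPKM in KO libraries, against 10.7 and 10.3 FPKM in WT libraries (0.50, adjusted p = 0.000316). ADGRD1, an adhesion G protein-coupled receptor, showed a change of 0.0017 that did not pass the test.

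The other large rises were at low levels. FEZF1-AS1, named for a zinc finger gene of the developing forebrain, was at 2.21 and 2.03 FPKM in KO libraries, against 0.968 and 1.21 FPKM in WT libraries (0.58, adjusted p = 0.000584). LMO7-AS1 was at 1.73 and 2.10 FPKM in KO libraries, against 0.747 and 1.27 FPKM in WT libraries (0.55, adjusted p = 0.0236). That call rested on few fragments and was lost without KO replicate 2 (0.45, adjusted p = 0.0818) and with no filter on low values (adjusted p = 0.0788). SLC9A3-AS1, across from a sodium-proton exchanger gene, was at 3.72 and 3.54 FPKM in KO libraries, against 2.52 and 2.19 FPKM in WT libraries (0.46, adjusted p = 0.00105). PSMB8-AS1, NFKB1-AS1 and NRSN2-AS1, also among the 10 largest rises, are described with their partners.

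KAZN-AS1 had the largest fall. Its partner KAZN encodes kazrin, a protein of cell junctions, and the antisense gene (chr1:14348955-14419973, minus strand) overlaps KAZN outside its exons. Its level was 0.0987 and 0.123 FPKM in KO libraries, against 4.01 and 3.46 FPKM in WT libraries, far apart. The KO values came from 6 and 8 fragments, and summed fragments, scaled to depth, were 34.4-fold more frequent in WT (95% interval 20.2 to 63.6, from the exact Clopper-Pearson bounds, which cover counting error only). On the log2(FPKM + 1) scale the change was -2.09 (SE 0.076, adjusted p = 1.98e-06). KAZN was at 0.742 and 0.733 FPKM in KO libraries, against 1.05 and 1.02 FPKM in WT libraries, below the level at which genes were tested.

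PRRT3-AS1 was at 2.07 and 2.03 FPKM in KO libraries, against 4.98 and 6.08 FPKM in WT libraries (-1.09, SE 0.085, adjusted p = 7.18e-05). Its partner PRRT3, a membrane protein gene, was at 1.05 and 0.995 FPKM in KO libraries, against 0.683 and 0.686 FPKM in WT libraries, a difference in the other direction that was not tested because the mean was under 1 FPKM. ABHD16B-AS1 was at 3.21 and 3.33 FPKM in KO libraries, against 6.60 and 6.89 FPKM in WT libraries (-0.86, adjusted p = 3.02e-05), with ABHD16B, a hydrolase gene, listed at 0 in all 4. THAP9-AS1 was at 20.9 and 21.3 FPKM in KO libraries, against 33.9 and 35.5 FPKM in WT libraries (-0.69, SE 0.054, adjusted p = 5.63e-05). It starts 232 bp from THAP9, a gene derived from a DNA transposase, which was at 0.825 and 0.784 FPKM in KO libraries and 1.12 and 1.03 FPKM in WT libraries. CD63-AS1 was at 3.01 and 2.89 FPKM in KO libraries, against 4.75 and 5.60 FPKM in WT libraries (-0.64, adjusted p = 0.000371), while the tetraspanin gene CD63 changed by -0.11 without passing the test (adjusted p = 0.107). KO and WT did not overlap for any of the 10 largest falls, by the rule that named them.

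**Figure D2:**
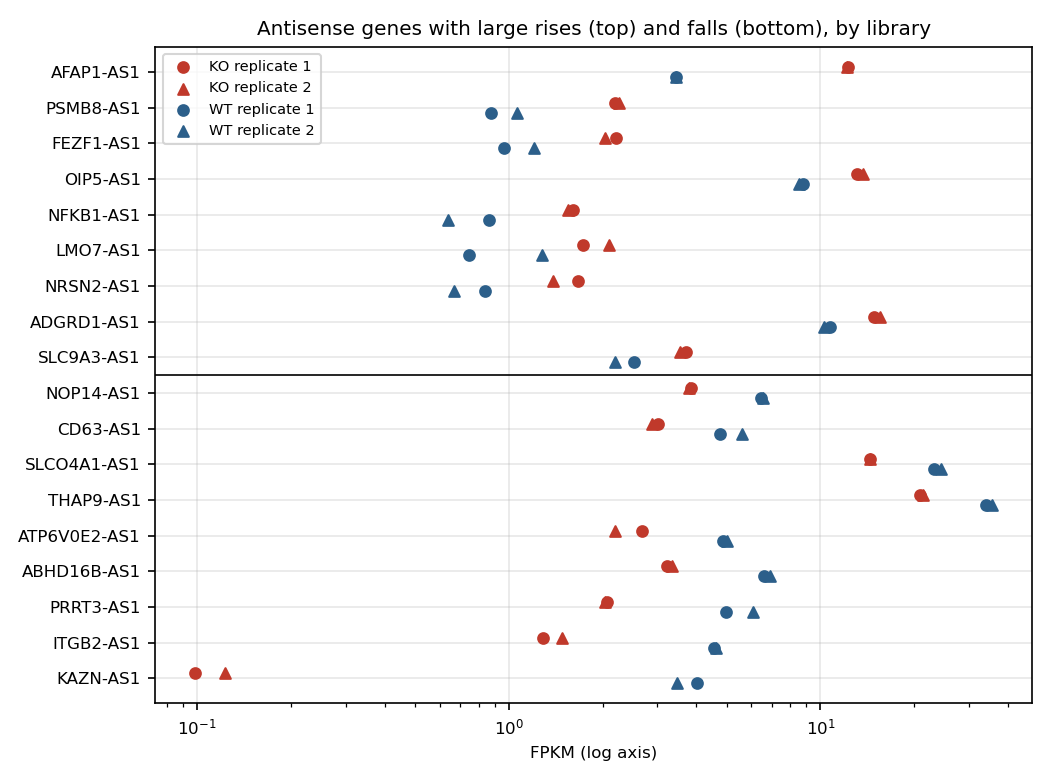
FPKM (log axis) of 9 of the 10 antisense genes with the largest rises, above the line, and 9 of the 10 with the largest falls, below it, with KO points above WT points in each row and 1 symbol per replicate. AFAP1-AS1 sits at 12.3 and 12.2 in KO against 3.43 in both WT libraries, and KAZN-AS1 at 0.0987 and 0.123 in KO against 4.01 and 3.46 in WT.

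Of 40 antisense genes chosen because they have been studied in cancer or gene regulation, 19 were members; 3 rose (AFAP1-AS1, OIP5-AS1 and TMPO-AS1), 8 fell and 8 did not pass, beside 21.6% higher and 28.4% lower of all genes tested. TMPO-AS1 was at 2.89 and 2.92 FPKM in KO libraries, against 2.17 and 2.33 FPKM in WT libraries (0.26, adjusted p = 0.00860), a call lost without either KO replicate (adjusted p = 0.0656 and 0.0803). Among those linked to the mesenchymal state, VIM-AS1 was at 2.46 and 2.73 FPKM in KO libraries, against 3.91 and 4.31 FPKM in WT libraries (-0.51, adjusted p = 0.000705). VIM, the gene of the intermediate filament vimentin, changed by -0.22 (adjusted p = 0.0154), which ended when either KO replicate was left out (adjusted p = 0.136 and 0.143). ZEB1-AS1 was at 1.68 and 1.61 FPKM in KO libraries, against 2.32 and 2.40 FPKM in WT libraries (-0.34, adjusted p = 0.00249). ZEB1, the transcription factor that represses epithelial genes, was at 10.3 and 10.1 FPKM in KO libraries, against 11.9 and 10.5 FPKM in WT libraries. It did not pass (-0.12, adjusted p = 0.165), and its change was -0.20 without WT replicate 2. SBF2-AS1 changed by -0.22 (adjusted p = 0.0230), which ended when either KO replicate was left out (adjusted p = 0.231 and 0.0654). The 8 that did not pass included NNT-AS1 (0.06), PSMA3-AS1 (0.07), DLGAP1-AS1 (0.01) and LOXL1-AS1 (0.10), whose partner LOXL1, a collagen cross-linking enzyme, rose by 0.29 (adjusted p = 0.00542; 0.0754 without KO replicate 1) in a region with a median of 0.25, relative to which its change was 0.05 (adjusted p = 0.540).

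Members lay in several arrangements with their partners. Exons overlapped the partner's exons in 110 cases, by a median of 15.2% of the antisense exon bases. The genes overlapped only outside exons in 26, were apart with starts within 1000 bp of each other in 18, and were apart and farther in 10. Counting any arrangement, 49 started within 1000 bp of the partner, so that the 5′ ends diverged or overlapped. FAM131B-AS2 lay on the partner's own strand, and the partner of PGM5P3-AS1 was not matched in the table. With exons overlapping, 15 rose and 41 fell of 110; outside exons 2 rose and 9 fell of 26; apart with near starts 1 rose and 2 fell of 18; and apart and farther 2 rose and 2 fell of 10. All genes tested had 21.6% higher and 28.4% lower, against 13.6% and 37.3% of the members with overlapping exons and 7.69% and 34.6% of those overlapping outside exons. Whether these shares differ between arrangements was not tested.

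Of the 120 partners that could be tested, 27 were higher (22.5%) and 29 lower (24.2%), beside 21.6% and 28.4% of all genes, with a median of -0.02. The split moved with the scaling, to 36 higher and 26 lower with median-of-ratios scaling and 34 higher and 19 lower relative to the region. These counts fell to 16 higher without KO replicate 2 and 17 lower without either KO replicate. Among the 121 pairs with both genes tested, 66 (54.5%) changed with the same sign, but 54 (44.6%) did relative to their regions. Both genes passed in 28 pairs: 6 with both higher, 14 with both lower, 7 with the antisense gene lower and the partner higher, and 1 with the antisense gene higher and the partner lower. The correlation of the changes across the 121 pairs was weak (Pearson's r = 0.25, and 0.15 relative to the regions), as a description of pairs that share the same 4 libraries and, for neighbours, the same region.

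The pairs were also divided by the distance between the starts. In the 45 with starts within 1000 bp, r was 0.59, although only 25 had the same sign; both genes passed in 7 and all 7 moved together. In the limma test described above, 0 pairs of this kind passed in opposite directions; at an unadjusted p under 0.05 there was 1 against 9 in the same direction, and with voom on recovered fragments 0 against 9. With median-of-ratios scaling there was 1 against 8, without WT replicate 1 there was 1 against 9, and without WT replicate 2 there were 2 against 11. Relative to the regions the counts were 0 against 4, without KO replicate 2 they were 0 against 3, and with the minimum mean at 5 FPKM no pair of this kind passed. In the 76 pairs with starts farther apart, r was 0.16, and both genes passed in 21, of which 13 moved together and 8 apart. That excess varied with the setting. Relative to the regions 6 moved together and 10 apart, and with a replicate block 9 and 10. With voom 15 moved together and 11 apart, and with quantile normalization 11 and 9. The excess was narrower or absent without either KO replicate and without WT replicate 2. Among the antisense pairs that lay apart with starts within 1000 bp, 9 of 16 had the same sign and r was 0.55. Of 726 other pairs of neighbouring genes in that arrangement, on opposite strands, 66.3% had the same sign, r was 0.43, and 163 of the 180 in which both passed moved together. Among the 83 antisense pairs with overlapping exons, 54.2% had the same sign and r was 0.30. Both genes passed in 19 of these, and 16 moved together. Of 801 other opposite-strand pairs with overlapping exons, 61.9% had the same sign and r was 0.35. Both genes passed in 204 of those, and 161 moved together. The difference between near and far pairs, and that between antisense and other pairs, was not tested.

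**Figure D3:**
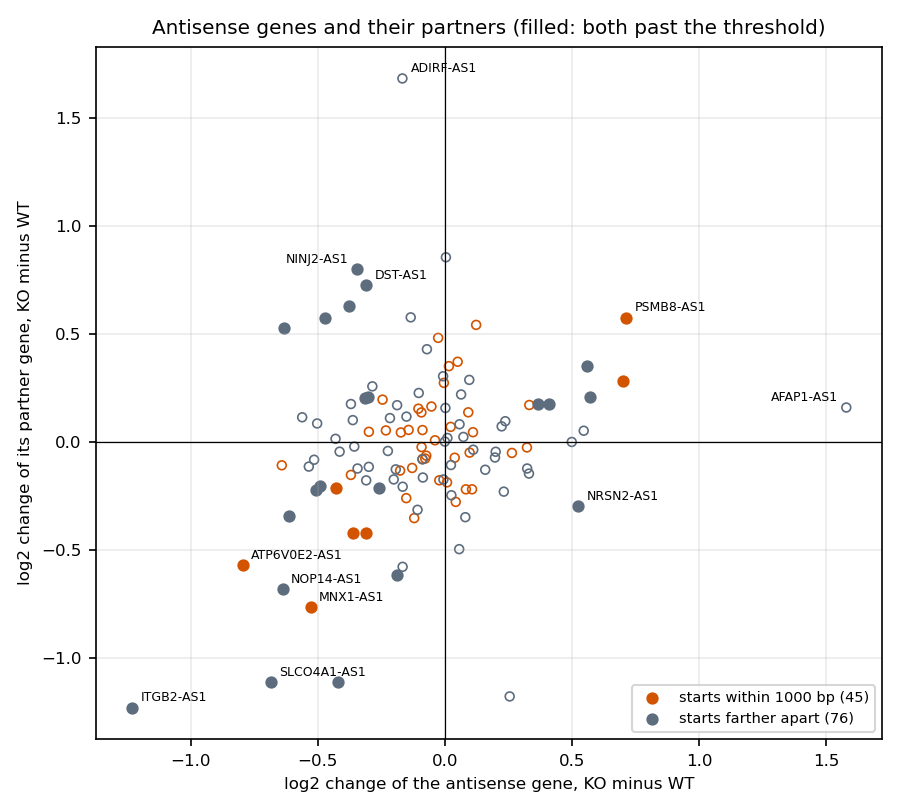
Log2 change of each antisense gene (horizontal axis) and of its partner (vertical axis), KO minus WT, for 121 pairs, coloured by whether the starts lie within 1000 bp (45) or farther apart (76), and filled where both genes passed the threshold. The 7 filled pairs with near starts lie at lower left or upper right of the zero lines, while 8 filled pairs with distant starts lie at upper left or lower right.

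Near pairs that moved together included those of PSMB8, ATP6V0E2, MNX1, MPDU1, TMEM147 and MAPKAPK5. PSMB8 encodes a catalytic subunit of the immunoproteasome, which cuts antigens for display. PSMB8-AS1 was at 2.20 and 2.26 FPKM in KO libraries, against 0.879 and 1.06 FPKM in WT libraries (0.71, SE 0.071, adjusted p = 0.000165). PSMB8 was at 28.3 and 28.2 FPKM in KO libraries, against 17.8 and 19.4 FPKM in WT libraries (0.58, adjusted p = 0.000200), so both genes stood higher in each KO library. ATP6V0E2 encodes a subunit of the proton pump of lysosomes. ATP6V0E2-AS1 was at 2.68 and 2.19 FPKM in KO libraries, against 4.88 and 5.02 FPKM in WT libraries (-0.80, adjusted p = 0.000158), and ATP6V0E2 at 14.5 and 13.3 FPKM in KO libraries, against 20.4 and 21.6 FPKM in WT libraries (-0.57, adjusted p = 0.000260). MNX1 is a homeobox gene of motor neurons and pancreas. MNX1, MNX1-AS1 and PSMB8-AS1 passed the level threshold only through the group in which they were high. MNX1-AS1 was at 0.956 and 0.874 FPKM in KO libraries, against 1.64 and 1.89 FPKM in WT libraries (-0.53, adjusted p = 0.000685), and MNX1 at 0.555 and 0.424 FPKM in KO libraries, against 1.28 and 1.80 FPKM in WT libraries (-0.76, adjusted p = 0.00110).

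Among the other near pairs, MPDU1, needed to use dolichol-linked sugars, fell by 0.42 (adjusted p = 0.000544), and MPDU1-AS1 was at 1.23 and 1.21 FPKM in KO libraries, against 1.55 and 2.20 FPKM in WT libraries (-0.36, adjusted p = 0.0265), which ended when either KO replicate was left out (adjusted p = 0.0766 and 0.0925). TMEM147, a protein of the endoplasmic reticulum, fell by 0.42 (adjusted p = 0.000565) and TMEM147-AS1 by 0.31 (adjusted p = 0.00634; 0.0573 without KO replicate 2 and 0.0700 relative to the region); this pair was named after its values were seen. MAPKAPK5-AS1 was at 4.15 and 4.32 FPKM in KO libraries, against 6.27 and 5.82 FPKM in WT libraries (-0.43, adjusted p = 0.000901). The kinase gene MAPKAPK5 changed by -0.21 (adjusted p = 0.0159), which ended when either KO replicate was left out (adjusted p = 0.121 and 0.130). Relative to its region, where the median was -0.22, the change of MAPKAPK5 was -0.0047 (adjusted p = 0.95), and that of MAPKAPK5-AS1 was -0.23 (adjusted p = 0.0187).

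Promoter windows are shown for 3 of the near pairs in which both genes passed, those with the largest antisense changes among the ones whose antisense start in RefSeq (GRCh38.p14) equals the deposited one. They are shown because the antisense gene of each pair starts in this stretch; of the 3 partners, only MNX1 starts within it as well. Each window runs 5′ to 3′ on the antisense gene's strand, from 250 bases before its start to 50 from the start on, and capitals mark matches, on either strand, to TATAAA (the TATA box), CCAAT (the CCAAT box), GGGCGG (the GC box) or CCGGAA (the core of ETS factor sites). The windows are chr6:32843836-32844135 (plus), chr7:149873813-149874112 (minus) and chr7:157010607-157010906 (plus).
PSMB8-AS1: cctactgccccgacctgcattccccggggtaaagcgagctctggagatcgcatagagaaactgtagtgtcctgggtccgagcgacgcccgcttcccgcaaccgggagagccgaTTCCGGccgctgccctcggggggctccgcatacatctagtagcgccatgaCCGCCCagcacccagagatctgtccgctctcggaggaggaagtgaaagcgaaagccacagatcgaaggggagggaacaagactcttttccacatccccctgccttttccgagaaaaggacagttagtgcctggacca
ATP6V0E2-AS1: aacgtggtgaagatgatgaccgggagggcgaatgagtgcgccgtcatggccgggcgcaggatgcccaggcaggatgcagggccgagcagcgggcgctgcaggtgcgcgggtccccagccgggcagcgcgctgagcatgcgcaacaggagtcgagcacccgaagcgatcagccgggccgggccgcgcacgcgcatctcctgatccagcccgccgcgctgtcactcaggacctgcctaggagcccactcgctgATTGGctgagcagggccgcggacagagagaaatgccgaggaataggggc
MNX1-AS1: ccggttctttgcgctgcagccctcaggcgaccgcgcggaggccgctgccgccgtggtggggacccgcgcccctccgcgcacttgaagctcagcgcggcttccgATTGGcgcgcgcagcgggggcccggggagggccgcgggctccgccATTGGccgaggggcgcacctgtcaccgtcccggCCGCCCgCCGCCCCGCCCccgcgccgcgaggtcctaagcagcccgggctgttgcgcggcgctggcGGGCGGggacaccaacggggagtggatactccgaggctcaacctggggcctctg

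The MNX1-AS1 window shares 293 of its 300 bases with the window of MNX1 on the other strand, since the starts lie 194 bp apart, and it holds 44 CG pairs, 2 CCAAT matches and 4 GGGCGG matches, some of which share a base with each other; matches to different motifs do not overlap in these windows. The PSMB8-AS1 window holds 22 CG pairs, with 1 match each to GGGCGG and CCGGAA, and that of ATP6V0E2-AS1 holds 32 CG pairs and 1 CCAAT match. None of the 3 holds TATAAA. Of the 165 members, 134 had a window in the RefSeq promoter table. TATAAA was found in 4.48% of these, against 12.0% of all 27305 windows of the same length; CCAAT in 31.3% against 35.7%; GGGCGG in 60.4% against 44.6%; and CCGGAA in 28.4% against 17.6%. The median number of CG pairs was 23 in the members' windows, 25 in their partners' and 14 in all windows. Members were chosen for their level, whereas all windows cover genes of any level. Whether these shares are particular to antisense genes was not tested. AFAP1-AS1, ITGB2-AS1 and KAZN-AS1 are named without a window.

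Same-direction pairs with distant starts included the largest paired change of all. ITGB2 encodes the beta chain of the leukocyte integrins, and ITGB2-AS1 (chr21:44921035-44929680, plus strand) starts 7780 bp from it, with 6.76% of its exon bases in ITGB2 exons. ITGB2-AS1 was at 1.28 and 1.48 FPKM in KO libraries, against 4.56 and 4.62 FPKM in WT libraries (-1.23, SE 0.066, adjusted p = 8.93e-06). ITGB2 was at 4.55 and 4.41 FPKM in KO libraries, against 11.7 and 12.0 FPKM in WT libraries (-1.23, SE 0.057, adjusted p = 4.67e-06). The median change of the surrounding 20 Mb was -0.09, so both stood apart from their region. SLCO4A1, an organic anion transporter gene, has 2 antisense members. SLCO4A1-AS1 was at 14.4 and 14.4 FPKM in KO libraries, against 23.2 and 24.3 FPKM in WT libraries (-0.68, adjusted p = 6.15e-05), and SLCO4A1-AS2 at 1.04 and 1.09 FPKM in KO libraries, against 1.85 and 1.68 FPKM in WT libraries (-0.42, adjusted p = 0.00136). SLCO4A1 itself was at 9.46 and 9.51 FPKM in KO libraries, against 20.7 and 22.6 FPKM in WT libraries (-1.11, adjusted p = 1.05e-05). The region had a median of -0.37, and relative to it SLCO4A1-AS2 no longer passed (-0.06, adjusted p = 0.562). NOP14, a factor of small ribosomal subunit assembly, was at 34.5 and 36.5 FPKM in KO libraries, against 59.2 and 55.6 FPKM in WT libraries (-0.68, adjusted p = 8.48e-05), with NOP14-AS1 at 3.85 and 3.77 FPKM in KO libraries, against 6.44 and 6.53 FPKM in WT libraries (-0.64, adjusted p = 0.000103).

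In 8 pairs the partners moved apart, and 5 of those with the widest differences follow. HIF1A, the oxygen-regulated transcription factor, was at 146 and 148 FPKM in KO libraries, against 103 and 93.7 FPKM in WT libraries (0.58, adjusted p = 0.000188). HIF1A-AS3, which overlaps it outside exons, was at 4.54 and 4.21 FPKM in KO libraries, against 6.48 and 6.42 FPKM in WT libraries (-0.47, adjusted p = 0.000509). The KO and WT values were separate for each gene of the pair, and the level of HIF1A-AS3 relative to HIF1A was 0.0312 and 0.0284 in KO libraries, against 0.0631 and 0.0685 in WT libraries.

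NINJ2, an adhesion molecule of injured nerve, rose by 0.80 (adjusted p = 5.24e-05) while NINJ2-AS1 was at 0.895 and 0.951 FPKM in KO libraries, against 1.24 and 1.67 FPKM in WT libraries (-0.35, adjusted p = 0.0142). Leaving out KO replicate 1 ended the antisense call (-0.33, adjusted p = 0.0715). DST, which links the cytoskeleton to adhesion sites, rose by 0.73 (adjusted p = 0.0105), and DST-AS1 was at 0.893 and 0.904 FPKM in KO libraries, against 1.42 and 1.29 FPKM in WT libraries (-0.31, adjusted p = 0.00561). VPS9D1-AS1 was more abundant than its partner, at 10.5 and 9.31 FPKM in KO libraries, against 12.7 and 13.6 FPKM in WT libraries (-0.38, adjusted p = 0.00292), while VPS9D1 was at 3.22 and 2.76 FPKM in KO libraries, against 1.32 and 1.85 FPKM in WT libraries (0.63, adjusted p = 0.00375). NRSN2-AS1 was the exception in direction, at 1.66 and 1.39 FPKM in KO libraries, against 0.842 and 0.669 FPKM in WT libraries (0.52, adjusted p = 0.00131), with NRSN2 at 8.53 and 8.20 FPKM in KO libraries, against 10.5 and 10.5 FPKM in WT libraries (-0.30, adjusted p = 0.00310). In none of these 5 pairs did the starts lie within 1000 bp. NINJ2-AS1, DST-AS1 and NRSN2-AS1 passed the level threshold only through the group in which they were high. The pairs of PTPRG and TMEM44 were named after their values were seen, and had antisense changes of -0.30 and -0.31 beside partner changes of 0.21 and 0.21, and both partner calls ended when either KO replicate was left out.

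**Figure D4:**
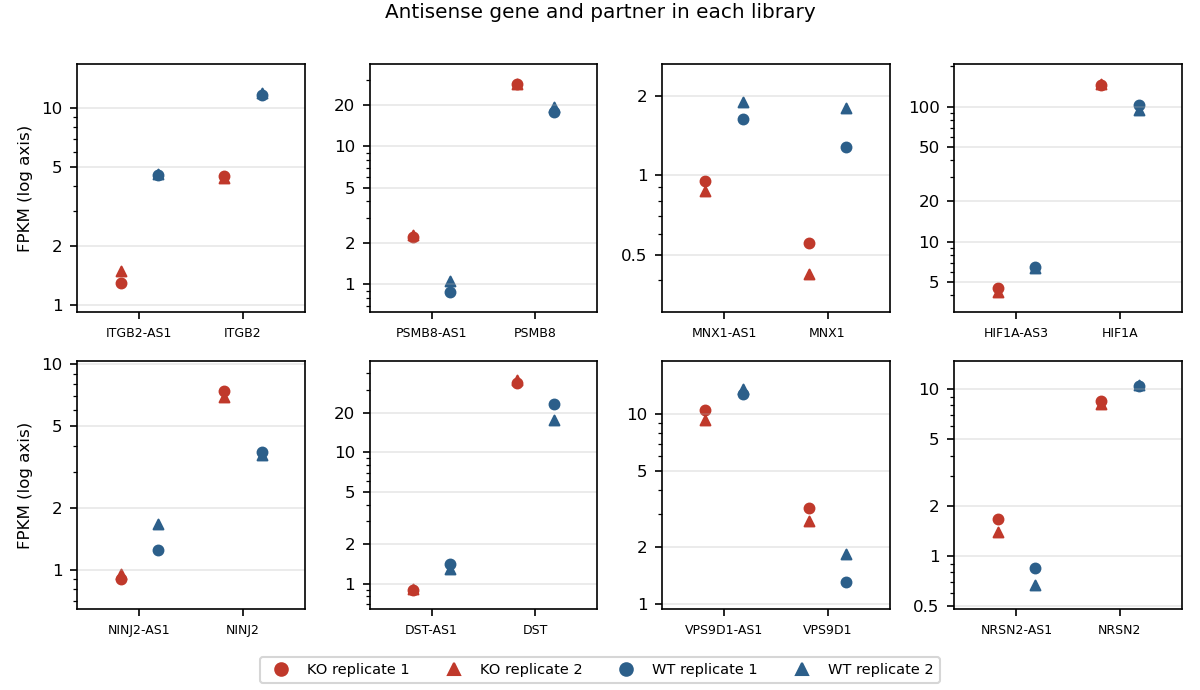
FPKM (log axis) of 8 antisense genes and their partners, with KO points left of WT points for each gene. In the ITGB2, PSMB8 and MNX1 panels both genes move the same way; in the HIF1A, NINJ2, DST and VPS9D1 panels the antisense gene is lower and the partner higher in KO, and in the NRSN2 panel the reverse holds.

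In 29 of the 121 pairs the antisense gene passed and the partner did not, and in 29 the reverse held. ADIRF, a gene of fat cell differentiation that was named after its values were seen, had the largest change of any tested partner, at 26.1 and 23.5 FPKM in KO libraries, against 6.67 and 7.37 FPKM in WT libraries (1.68, adjusted p = 3.31e-06). ADIRF-AS1 was at 1.77 and 1.93 FPKM in KO libraries, against 2.23 and 2.18 FPKM in WT libraries (-0.17, adjusted p = 0.0583) and did not pass. Of members with a great share of their exon bases inside partner exons, PCF11-AS1 passed (98.3% shared; -0.36, adjusted p = 0.00716; 0.0690 without KO replicate 1). ARHGAP5-AS1 (96.7% shared) was at 2.85 and 3.14 FPKM in KO libraries, against 2.78 and 3.26 FPKM in WT libraries (-0.01, adjusted p = 0.943), while ARHGAP5, a GTPase-activating protein gene, rose by 0.31 (adjusted p = 0.00738; 0.0554 without KO replicate 2). GABPB1-AS1 (80.4%) changed by 0.20 (adjusted p = 0.0796), CNPY2-AS1 (74.7%) by 0.23 (adjusted p = 0.209) and PITPNA-AS1 (68.4%) by -0.17 (adjusted p = 0.161), each without passing. Whether each of them passed depended on which WT replicates were kept. AP1G2-AS1 (67.0%), named after its values were seen, rose by 0.41 (adjusted p = 0.00200), and AP1G2 rose by 0.18 (adjusted p = 0.0259; 0.11 with adjusted p = 0.121 relative to the region, and called in 8 of 13 alternatives). In the 29 tested pairs with at least 20% of exon bases shared, r was 0.06 and 12 had the same sign.

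Regional shifts touched many members. Chromosome 4 held 2 opposite cases: near the short-arm end the other genes had a median of -0.40, where NOP14-AS1 fell by 0.64 and AFAP1-AS1 rose by 1.58. NFKB1-AS1, across from the gene of the p105 and p50 subunits of NF-kB, lay in a region with a median of 0.53. NFKB1-AS1 was at 1.61 and 1.55 FPKM in KO libraries, against 0.867 and 0.638 FPKM in WT libraries (0.56, adjusted p = 0.000792), and relative to the region the change was 0.04 (adjusted p = 0.738). NFKB1 rose by 0.36 (adjusted p = 0.00134) but passed as lower relative to the region (-0.18, adjusted p = 0.0267). THAP9-AS1 fell in a region that was higher by 0.34. OIP5-AS1 lay where the median was 0.36, and relative to it the change was 0.21 (adjusted p = 0.0157), whereas OIP5 turned to -0.16. Relative to their regions, calls were kept at smaller changes for ABHD16B-AS1 (-0.50), SLCO4A1-AS1 (-0.32), NOP14-AS1 (-0.24), NOP14 (-0.28) and VIM-AS1 (-0.20), and at larger ones for THAP9-AS1 (-1.04), DST-AS1 (-0.47) and TMPO-AS1 (0.41). Relative to their regions 48 of the 75 calls were kept, and FGD5-AS1 (-0.08), ZEB1-AS1 (-0.18), SBF2-AS1 (-0.17), MPDU1-AS1 (-0.26) and NINJ2-AS1 (-0.20) were among those lost. VIM turned to 0.086, not passing (adjusted p = 0.226), and AFAP1 passed at 0.57. Whether copy number differs between the lines was not tested.

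**Figure D5:**
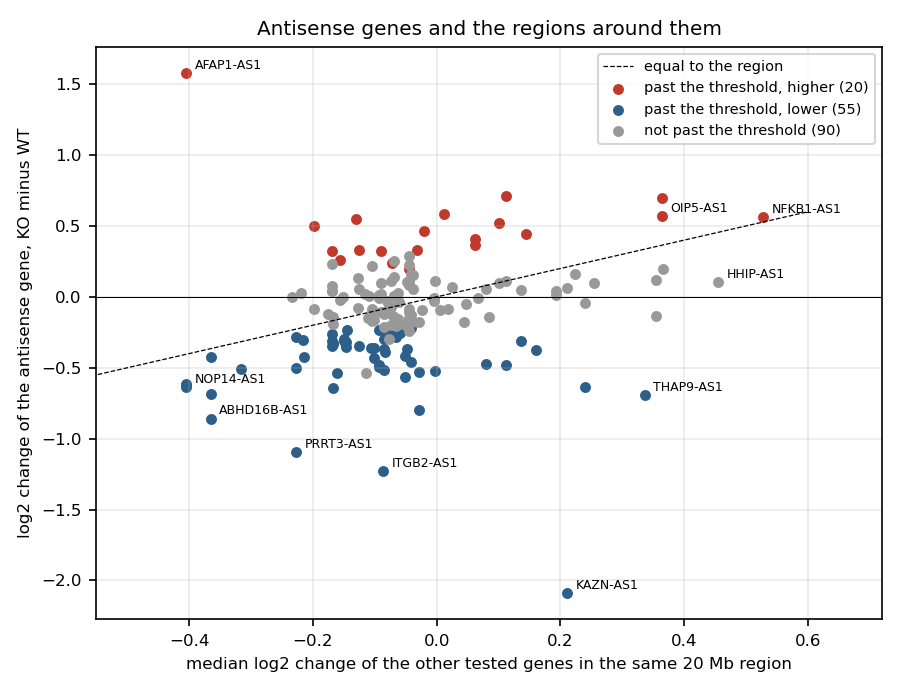
Log2 change of each antisense gene (vertical axis, KO minus WT) against the median log2 change of the other tested genes in its 20 Mb region (horizontal axis), coloured by call, with a dashed line where both are equal. NFKB1-AS1 lies on the line, AFAP1-AS1 far above it at a regional median of -0.40, and KAZN-AS1 and THAP9-AS1 far below it.

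The nuclear exosome and its adaptors, which degrade many antisense RNAs, were measured from a list of 27 genes, all tested: 4 were higher (14.8%) and 10 lower (37.0%), with a median of -0.07. In all, 51.9% of the list passed, against 49.9% of all genes tested (21.6% higher, 28.4% lower), so the share called was near that of all genes. Of the core subunits, EXOSC4 was at 16.1 and 15.3 FPKM in KO libraries, against 23.7 and 26.2 FPKM in WT libraries (-0.63, adjusted p = 0.000184; -0.36 relative to the region). EXOSC5 was at 30.7 and 26.5 FPKM in KO libraries, against 38.8 and 44.9 FPKM in WT libraries (-0.53, adjusted p = 0.00390), and EXOSC3 fell by 0.40 and EXOSC1 by 0.35. EXOSC9 moved the other way, at 45.4 and 46.7 FPKM in KO libraries, against 30.8 and 31.1 FPKM in WT libraries (0.56, adjusted p = 0.000120), in a region with a median of 0.48, relative to which it did not pass (adjusted p = 0.179). The catalytic subunit DIS3 (0.05) and the helicase MTREX (-0.07) did not pass, and the nuclear nuclease EXOSC10 rose by 0.17 (adjusted p = 0.0213; called in 8 of 13 alternatives); its region had a median of 0.21, relative to which it was at -0.02 and did not pass (adjusted p = 0.714). Any link between these levels and those of the antisense genes was not tested.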

How the data were processed

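RNA of cultured MDA-MB-231 cells was sequenced in 2 KO and 2 WT libraries, grouped by their titles. STAR, Subread and DESeq2 are named, without version or role, in the submitters' processing notes. Genome build, gene annotation and the strand setting were not given in the sources used here. What the authors deposited is 1 table of FPKM by Entrez ID with exon coordinates and gene lengths, per the file headers. FPKM times length gave whole multiples of 1 fragment for 100% of values above 0 (tolerance 0.001), so fragments could be recovered. Columns of other samples numbered 0. Symbols, classes and promoters came from RefSeq on GRCh38.p14; 37708 IDs (96.0%) matched, and 98.4% of 37675 genes lay within 1000 bp of that assembly, while gene coordinates are as deposited.

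The main test was limma 3.58.1 (R 4.3.3; trend, robust) on log2(FPKM + 1), KO minus WT, over the 11716 genes whose mean reached 1 FPKM, with Benjamini-Hochberg adjustment over all of them and a threshold of 0.05. Fold changes on this scale understate those of low genes. As an alternative, voom was run on the recovered fragments. Other alternatives were another pseudocount, filter or scaling, limma without trend, a replicate block, leaving out each library (the lone library of its group is then assumed to vary like the other group) and subtracting the median change of the other genes in the same 20 Mb. The fit was also run on simulated counts without regional shifts, and no result here rests on that run.

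Members, lists and tests were chosen with earlier results of these data known. Named were the 10 largest rises and falls past the threshold without overlap between groups; the 6 highest means; up to 6 pairs that passed in opposite directions and up to 8 in the same; the 6 largest exon overlaps; the 3 members just above and 3 genes just below 1 FPKM; studied antisense genes; and partners of these. Some genes that this rule names are not reported here.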

Additional observations from a re-analysis of the deposited data

How the results depend on the processing

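Of the 75 antisense calls, 39 were made in every alternative in which the gene was tested, and none was made in the opposite direction in any of them. With no filter on low values (more genes to adjust over) 31 members were lower, and with the minimum mean set to 5 FPKM (32 members tested) 5 were higher and 13 lower. Subtracting regional medians left 33 members and 19 partners lower, and turned the sign of the partners OIP5 (-0.16), NFKB1 (-0.18) and VIM (0.086). Of these, NFKB1 passed in the new direction (adjusted p = 0.0267), while OIP5 and VIM did not pass (adjusted p = 0.0562 and 0.226). The cause was not tested. Leaving out 1 library gave 14 to 30 members higher and 33 to 72 lower, 16 to 34 partners higher and 17 to 36 lower, 1559 to 3076 of all genes higher and 1962 to 4001 lower, a median change of the members from -0.12 to -0.065, and a RIOX2 change from 0.12 to 0.20. The members' median was -0.14 with a pseudocount of 0.1, -0.13 with the filter at 5 FPKM, -0.087 with quantile normalization, -0.071 with median-of-ratios scaling, -0.15 with voom and -0.080 relative to the region. RIOX2 passed the threshold with the filter at 5 FPKM (0.16), quantile normalization (0.17), median-of-ratios scaling (0.20), voom (0.17) and relative to the region (0.20). With a replicate block, 20 members were higher and 56 lower, 25 and 26 partners, and 2348 and 3029 of all genes, and RIOX2 was at 0.16. Deviations of libraries with the same number had a correlation of -0.22. With 2 libraries per group the deviations mirror each other, so this value cannot decide whether the numbers pair the libraries. The depth of WT replicate 2 sets the precision of the lowest members: 3 fragments on 1 kb equal 0.133 FPKM there, against 0.0615 and 0.0575 FPKM in the KO libraries.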

Other observations

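Divergent transcripts, noncoding genes named -DT that start beside a coding gene and run away from it, were measured beside the antisense genes. Of 61 tested, 11 were higher and 19 lower in KO, with a median log2 change of -0.11; 49.2% of them passed, beside 49.9% of all genes tested (21.6% higher and 28.4% lower) (the genes below were named after their values were seen). APCDD1L-DT had the largest rise, at 3.27 and 3.72 FPKM in KO libraries, against 0.866 and 0.466 FPKM in WT libraries (1.44, SE 0.123, adjusted p = 0.000298 in limma). CTBP1-DT had the largest fall, at 5.09 and 5.04 FPKM in KO libraries, against 9.05 and 9.21 FPKM in WT libraries (-0.74, adjusted p = 4.81e-05), in a region with a median change of -0.40, relative to which the fall was -0.34 (adjusted p = 0.00306). CAV2-DT, beside a caveolin gene, was at 1.35 and 1.37 FPKM in KO libraries, against 0.661 and 0.774 FPKM in WT libraries (0.46, adjusted p = 0.000989). Of the intronic genes, GABPB1-IT1 rose by 0.22 (adjusted p = 0.0241), in a region with a median of 0.37, relative to which it turned to -0.15 without passing (adjusted p = 0.0965), and KCNQ5-IT1 fell by 0.63 (adjusted p = 0.0377), and the overlapping gene PCBP2-OT1 fell by 0.66 (adjusted p = 0.0311). These 3 calls were not made without KO replicate 1 or without KO replicate 2. APCDD1L-DT, CAV2-DT and GABPB1-IT1 had WT means under 1 FPKM (0.666, 0.718 and 0.979). KCNQ5-IT1 and PCBP2-OT1 had KO means under 1 FPKM (0.755 and 0.641). All of these passed the level threshold through the group in which they were high.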
